A study of Mus musculus with 12 samples.

Results

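The 10 genes described here are the 6 contactins (Cntn1, Cntn2, Cntn3, Cntn4, Cntn5 and Cntn6) and the 4 members of the L1 family (L1cam, Nrcam, Chl1 and Nfasc), taken by name from 23513 genes, and all 10 were present in the count tables. Contactins are adhesion proteins held on the outer face of the membrane by a lipid anchor, with immunoglobulin domains followed by fibronectin repeats. Members of the L1 family have a similar outer part but cross the membrane and bind ankyrin, which links them to the spectrin and actin skeleton. Both families are known for guiding and bundling growing axons, and L1cam in particular has been studied as a protein whose adhesion is sensitive to ethanol.

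The levels come from single nucleus RNA sequencing (snRNAseq) of embryonic cortex of C57BL/6J mice on embryonic day 14, with 50550 nuclei in 25 clusters of neurons and their progenitors. Pregnant dams received EtOH at 2.5 g/kg or saline by intraperitoneal injection, once daily for 6 days from embryonic day 8.5, and no gene was altered in either group. The saline group held 5 embryos (S1-1, S1-2, S2-1, S2-2 and S2-4) and the EtOH group 6 (E1-1, E1-2, E2-1, E2-2, E2-3 and E2-4), where the first part of the name is the dam, so that each group had 2 dams. Dams S1 and E1 made up batch 1 and dams S2 and E2 batch 2, and a further saline embryo, S2-3, was not analysed here. With 2 dams per group, p-values treat littermates as independent and measure the spread between embryos. A fit of 1 batch alone compares 1 dam with 1 dam, so treatment and dam cannot be told apart in it. Clusters carry the authors' names, and 22 of them fall into radial glial cells (RGC), intermediate progenitor cells (IPC), projection neurons (PN) and interneurons (Int). Of 19 marker genes of these 4 types, 19 were highest in their own type, and the striatal genes Ebf1 and Rarb were highest in Cluster 11, named striatal interneurons.

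The libraries differed before any gene was compared. Total UMIs were 44017566 to 83061737 in saline and 14078316 to 38034349 in EtOH embryos, and the median per nucleus was 6325 to 9051 and 4072 to 6911. The lowest saline median, 6325, was that of S2-4, which lay inside the EtOH range. The 3 embryos of dam S2 also differed from each other more than other littermates did, with a chi-square per degree of freedom of 48.8 to 89.7 between them against 4.33 to 12.3 between other littermates. Leaving out S2-4 raised the calls over all genes from 0.792% to 8.78% of tests in the clusters and from 4.32% to 18% in the 4 types, so the 3 called results of the members are given with and without this embryo, while values of other genes are given with it. Of all barcodes, 314 occurred in more than 1 library, which was 0.999% to 1.57% of the nuclei of an embryo. Doublets were not called here.

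On GRCm38, all 10 genes are annotated as protein coding and several are neighbours. Cntn2 (chr1:132509427-132543256) and Nfasc (chr1:132564690-132741797) lie on the minus strand of chromosome 1, 21.4 kb apart with no protein coding gene between them. Chromosome 6 holds Cntn3 (chr6:102162655-102573101, minus strand), Chl1 (chr6:103510586-103750211), Cntn6 (chr6:104492790-104863406) and Cntn4 (chr6:105677660-106699310, the last 3 on the plus strand), separated by 937, 743 and 814 kb that hold 0 protein coding genes in each gap. The others have no member beside them: Cntn1 at chr15:92051165-92341967 and Nrcam at chr12:44328885-44601964 on the plus strand, and Cntn5 at chr9:9660891-10904775 and L1cam at chrX:73853778-73896105 on the minus strand. L1cam overlaps the protein coding genes Arhgap4, on the same strand, and Avpr2, on the other. How far their reads were kept apart from those of L1cam was not tested. Gene length runs from 33830 bases for Cntn2 to 1243885 for Cntn5, and nuclear RNA is rich in intron sequence, so levels are compared between clusters and not between genes.

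RefSeq promoters (GRCm38.p6) were searched for 2 E-boxes, the short motifs of the basic helix-loop-helix factors that drive neuronal differentiation. The reason was that L1cam was higher in PN and Int than in RGC, and Cntn2 higher in PN than in RGC. The motifs were CAGATG, whose other strand reads CATCTG, and the palindrome CAGCTG, and the window was the 250 bases before each start, with 16 starts for the 10 genes. CAGATG was found in 2 of the 16 windows, which overlap and are both of L1cam, and in 14.4% of 32851 promoters of this length, and CAGCTG in 2 of the 16, of Cntn4 and Cntn6, and in 13% of promoters. The sequences shown here run 5′ to 3′ on the strand of the gene, with matches in capitals, and are those of L1cam (chrX:73880791-73881040, minus strand), of Cntn6 with its pair of matches (chr6:104492794-104493043, plus strand), and of Cntn2 with none (chr1:132542941-132543190, minus strand).
L1cam: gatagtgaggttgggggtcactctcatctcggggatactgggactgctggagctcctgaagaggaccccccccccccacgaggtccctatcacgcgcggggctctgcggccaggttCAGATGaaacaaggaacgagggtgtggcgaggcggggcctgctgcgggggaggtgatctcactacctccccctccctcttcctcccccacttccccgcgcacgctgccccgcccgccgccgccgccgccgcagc
Cntn6: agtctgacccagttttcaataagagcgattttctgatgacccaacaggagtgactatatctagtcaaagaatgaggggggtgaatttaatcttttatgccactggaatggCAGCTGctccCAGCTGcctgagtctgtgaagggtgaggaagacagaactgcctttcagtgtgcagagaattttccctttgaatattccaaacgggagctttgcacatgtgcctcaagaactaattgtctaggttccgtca
Cntn2: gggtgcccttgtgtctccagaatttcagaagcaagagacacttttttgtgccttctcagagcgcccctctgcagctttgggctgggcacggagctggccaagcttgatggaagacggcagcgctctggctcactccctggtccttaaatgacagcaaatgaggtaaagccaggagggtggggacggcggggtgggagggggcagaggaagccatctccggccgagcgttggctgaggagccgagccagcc
The L1cam match began 134 bases before this start and those of Cntn6 140 and 130 bases before theirs. A match of these letters is a description of the window and not a site of binding.

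Levels are CPM, the UMIs of a gene scaled to 1000000 UMIs of all genes, from counts summed per embryo and cluster, in the embryos with at least 10 nuclei there, and are given as mean ± SD over embryos. Since the clusters were made from these same nuclei, levels across clusters are a description without a test. The 10 genes had 7 different highest clusters. Neighbours in the order of levels were mostly close, and 18 to 24 of the 24 steps between neighbouring clusters were smaller than the larger of their SDs.

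**Figure D1:**
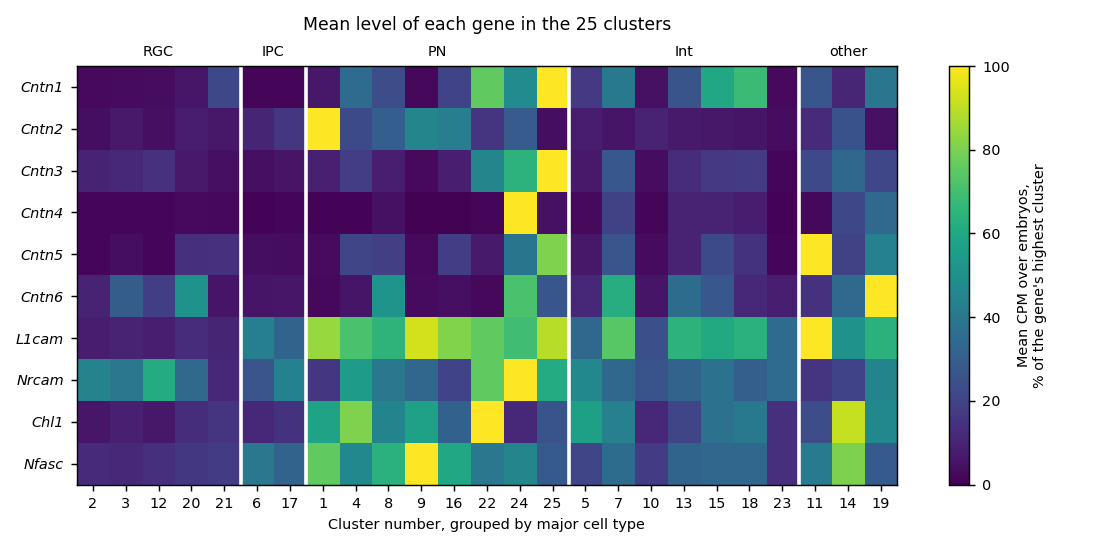
Mean CPM over embryos of each gene (rows) in the 25 clusters (columns, grouped by major cell type), as a percent of the level in the gene's highest cluster. L1cam and Nfasc are spread over neuronal clusters, Nrcam is also high in RGC Cluster 12 and lowest in RGC Cluster 21, and Cntn4 and Cntn5 are high in few clusters.

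Among the contactins, Cntn2 (a contactin carried by growing axons of early projection neurons) was the gene of Cluster 1, named callosal PN, at 491 ± 70.7 CPM (n = 11). It was higher there than in Cluster 9, early PN, in 11 of 11 embryos, with 224 ± 50.4 CPM in Cluster 9 and 209 ± 64.8 in Cluster 16, caudal subcortical PN. Clusters 9 and 16 did not differ beyond their spread. Cluster 1 held 8.64% of nuclei and 36.8% of the UMIs of Cntn2. Over the PN clusters together its level was 9.87 times that of RGC at the median over embryos, with a range of 5.82 to 13.1, and 6.96 times that of Int. The lowest levels were 15.5 ± 9.67 CPM in Cluster 23 and 18.3 ± 15.1 CPM in Cluster 25.

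Cntn1, the contactin that also joins the septate-like junctions beside nodes of Ranvier later in life, showed another pattern. Its highest level was 983 ± 107 CPM (n = 7) in Cluster 25, named PN 3, followed by 741 ± 135 in Cluster 22 and 668 ± 84.1 in Cluster 18, an interneuron cluster. Clusters 22 and 18 did not differ beyond their spread. Progenitors had little of it, with 17.4 ± 11.8 CPM in Cluster 6 and 18.1 ± 11.3 in Cluster 17, the 2 IPC clusters, and 24.3 to 59.2 CPM in RGC clusters other than Cluster 21, the cortical hem, where it was 213 ± 84.3. Early PN in Cluster 9 had 19.9 ± 12.7 CPM, close to IPC, while they were the second highest cluster of Cntn2.

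Cntn3 was highest in the same cluster as Cntn1, at 734 ± 144 CPM (n = 7) in Cluster 25, followed by 475 ± 175 in Cluster 24 (n = 10) and 333 ± 166 in Cluster 22. Of the 6 embryos with enough nuclei in both, Cluster 25 was above Cluster 24 in 3, so this order rests on means over different embryos. Cntn4, which binds the amyloid precursor family and guides retinal axons, was high in Cluster 24, named PN 2, at 2957 ± 1282 CPM (n = 10), which was 48.5 times its median over clusters. The embryos ranged from 540 CPM in S2-4, which had 10 nuclei in this cluster, to 4672 CPM in E2-3. Cluster 19, which the authors named unknown neurons, had 1011 ± 294 CPM of Cntn4 and the interneuron Cluster 7 had 572 ± 165. In 20 of 25 clusters the level of Cntn4 was under 10% of that in Cluster 24.

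Cntn5 was the contactin of striatal nuclei, with 7313 ± 730 CPM (n = 11) in Cluster 11 and a range of 6111 to 8381 over embryos. Cluster 11 held 4.37% of nuclei and 31.2% of the UMIs of Cntn5. Cluster 25 followed with 5886 ± 1190 CPM (n = 7), then Cluster 19 with 3214 ± 648 and Cluster 24 with 2834 ± 439, and the last of these steps was within the spread. The lowest level was still 140 ± 90.1 CPM, in the non-mitotic RGC of Cluster 12. Cntn6, a contactin of sensory and motor circuits, was highest in Cluster 19 at 230 ± 71.4 CPM and in Cluster 24 at 164 ± 101, and the difference was within the spread. In contrast to Cntn2, it was lowest in callosal PN, with 5.29 ± 4.48 CPM in Cluster 22 and 5.37 ± 3.46 in Cluster 1.

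In the L1 family, L1cam was the gene most evenly spread over neurons. Its highest level, 141 ± 13.2 CPM in Cluster 11, was 1.57 times its median over clusters, and the 5 highest clusters, which also include Clusters 9, 25, 1 and 16, followed each other without a step beyond the spread. RGC clusters had 11.1 to 17.9 CPM, IPC clusters 45.1 to 60.7. Per embryo, the level of L1cam was 4.51 times that of RGC in IPC and 5.79 times in Int at the median and 5.98 to 14 times over embryos in PN, and it was higher than in RGC in 11 of 11 embryos each time.

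Nfasc, the neurofascin of the axon initial segment, was also higher in PN than in progenitors, with 946 ± 106 CPM in Cluster 9, 759 ± 155 in Cluster 14 (Cajal-Retzius cells) and 716 ± 52.5 in Cluster 1. Its lowest level was 108 ± 26.5 CPM in Cluster 3, and over types PN had 4.94 times the level of RGC. Chl1, the close homologue of L1cam, was highest in Cluster 22 at 1220 ± 334 CPM, in Cluster 14 at 1112 ± 201 and in Cluster 4 at 985 ± 258, and these 3 did not differ beyond their spread. Its lowest clusters were RGC, at 72.4 ± 23.7 CPM in Cluster 2.

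Nrcam, which is also bound by semaphorin receptors in axon guidance, differed from the rest of the family in that RGC as a type did not have less of it than PN or Int. The 4 types had 687 ± 85.2 CPM in RGC, 506 ± 72.1 in IPC, 638 ± 80.5 in PN and 579 ± 22.4 in Int (n = 11 each), and PN were above RGC in 2 of 11 embryos. Its highest levels were 1590 ± 361 CPM in Cluster 24, 1204 ± 158 in Cluster 22 and 981 ± 97.3 in Cluster 12, the non-mitotic RGC. RGC clusters were far apart, since the lowest level of all 25 clusters, 178 ± 53.9 CPM, was in Cluster 21, the cortical hem. The 2 clusters named callosal PN stood apart, with 253 ± 99.8 CPM in Cluster 1 against 1204 ± 158 in Cluster 22, and for Cntn2 the order was the other way, with 491 ± 70.7 and 75.2 ± 10.6 CPM.

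Shares of nuclei with at least 1 UMI followed the levels but also the depth, so nuclei were thinned to 2000 UMIs each, which left out 177 saline and 210 EtOH nuclei with fewer. After thinning, Nfasc was seen in 81.1% ± 3.18 of nuclei of Cluster 9 and L1cam in 25.2% ± 3.14 of nuclei of Cluster 11, against 18.3% and 1.48% in Cluster 2, an RGC cluster. The shares without thinning were 96.4% and 66.1%, and 46.9% and 6.84% in Cluster 2, where the median depth was 7487 UMIs against 5566 in Cluster 9 and 8528 in Cluster 11. For Cntn6 the thinned share was 22.4% in Cluster 19 and 1.11% in Cluster 1, and for Cntn2 59.3% in Cluster 1 and 2.97% in Cluster 2. Cntn5 had no cluster near 0, and its lowest thinned share was 16.7% ± 9.64 in Cluster 2, with 84.7% in Cluster 11. Free RNA gives UMIs in nuclei that do not express a gene, and with no cluster that is sure to lack Cntn5, the part of free RNA in these low shares was not tested.

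Over the means of the 25 clusters, Pearson's r on log2(CPM + 1) gives the genes whose pattern was most like that of each member, among 13646 genes with at least 5 CPM in a cluster. The points share libraries, so these values describe the clusters and carry no test. Among the members the highest values were r = 0.81 for Cntn1 and Cntn5, for Cntn4 and Cntn6, for Cntn2 and Nfasc and for L1cam and Nfasc, while Cntn2 and Cntn6 had the lowest, r = -0.37. The gene nearest to Cntn1 was Kifc3 (r = 0.94) and to Cntn2 Gm13219 (0.91), followed by Frmd4b (0.89) and Bhlhe22 (0.87). Nearest to L1cam were Fam78b and Mmp24, both at r = 0.94. Ntng1, an anchored axon guidance protein, was near both Cntn4 (0.89) and Cntn6 (0.82), and was highest in Cluster 24, a PN cluster, at 600 CPM. The authors named a thalamic cluster by Ntng1 and Tcf7l2 and removed it. Among the 25 clusters Tcf7l2 was highest in Cluster 20, an RGC cluster. Cbln4 (0.91) was nearest to Cntn4, Gnaz (0.90) to Cntn5, Maoa (0.71) to Nrcam, Gm10308 (0.81) to Chl1 and Ccser1 (0.89) to Nfasc. The nearest gene of Cntn3, 4930587E11Rik (0.98), is annotated antisense within Cntn3, and Gm10538 (0.89), near Nfasc, is antisense within Nfasc. Each is counted in a row of its own, and how far reads of a gene and its antisense partner were kept apart was not tested.

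EtOH was compared with saline by edgeR's quasi-likelihood test on counts summed per embryo, adjusted over all genes of a cluster or type by the Benjamini-Hochberg method, and calls needed an adjusted p below 0.05 together with a level more than 25% higher or 20% lower. Of 240 member and cluster pairs that could be tested 1 was called, which is 0.417% against 0.792% of all tests in the 25 clusters. Of 40 member and type pairs 2 were called, 5% against 4.32% of all tests in the 4 types. All 3 were lower after EtOH, namely Cntn5 in Cluster 23 and in IPC, and Cntn1 in RGC, and calls toward lower levels were 0.35% of all cluster tests and 1.47% of all type tests. An unadjusted p under 0.05 was found in 42 of the 240 pairs, 17.5%, against 17.4% of all tests, and in 9 of the 40, 22.5%, against 28.9%, so these shares lay near or under the background.

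**Figure D2:**
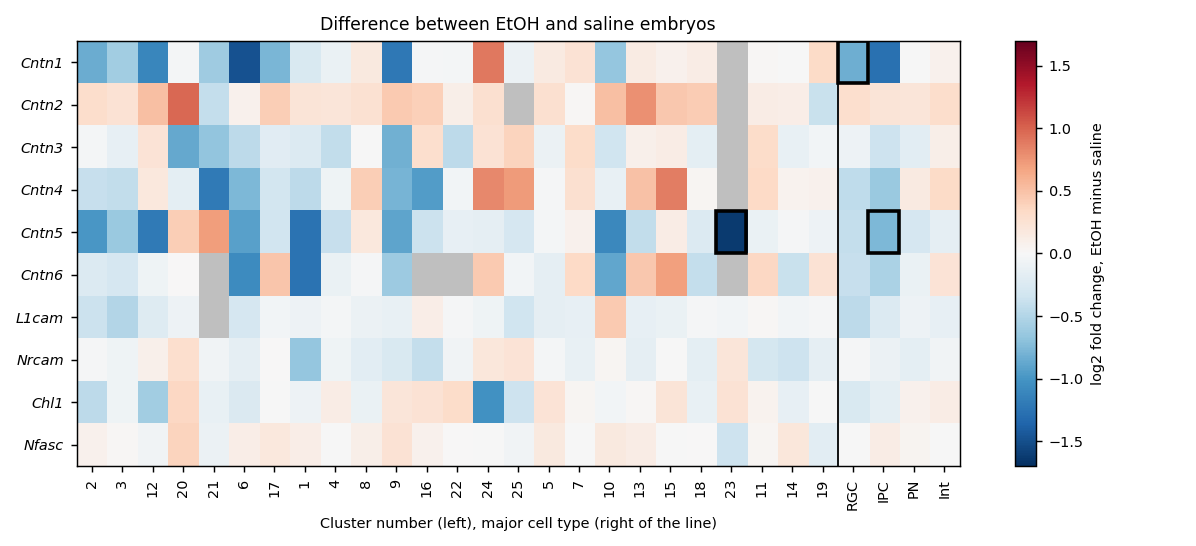
Log2 fold change, EtOH minus saline, of each gene (rows) in the 25 clusters and 4 major types (columns), with blue for lower after EtOH, grey for pairs not tested and a black frame for the 3 called pairs. Values of Cntn1 and Cntn5 are below 0 in Clusters 2, 3, 12, 6, 17, 9 and 10 and those of Cntn5 above 0 in Clusters 20 and 21, and Cntn2 is above 0 in 21 of 23 clusters, without a call in this fit.

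Cntn5 in Cluster 23, a small cluster named migrating interneurons, was 259, 155, 275, 241 and 135 CPM in saline embryos S1-1, S1-2, S2-1, S2-2 and S2-4. In EtOH embryos E1-2, E2-1, E2-2, E2-3 and E2-4 it was 43, 36.2, 98.9, 93 and 71.1 CPM, and E1-1 had too few nuclei. The groups did not overlap, which was so for 2.12% of the 3915 genes tested there. The log2 fold change was -1.63 (SE 0.28, 95% CI -2.21 to -1.04, edgeR adjusted p = 0.0118), and calls in this cluster were 0.409% of genes. Without S2-4 it was -1.76 (adjusted p = 0.000333), and it lost the call without E1-2 (-1.56, adjusted p = 0.0577) and without E2-1 (-1.41, adjusted p = 0.0563). Batch 2 alone gave -1.53 (adjusted p = 0.094), and batch 1, with 1 EtOH embryo that had enough nuclei, was not fitted alone; its means were 207 CPM in saline and 43 in EtOH. A Cntn5 UMI was seen in 66.4% ± 21 of saline and 19.7% ± 3.52 of EtOH nuclei, and after thinning in 32.8% ± 12 and 10.5% ± 5.07, where the lowest thinned share of any cluster was the 16.7% of Cluster 2. On thinned counts the log2 fold change was -1.51 (adjusted p = 0.0945). The counts rest on 26 to 80 nuclei per saline embryo and 17 to 45 per EtOH embryo. They are low, with 4, 9, 23, 10 and 13 UMIs of Cntn5 in E1-2, E2-1, E2-2, E2-3 and E2-4, against 44 to 210 in saline embryos.

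Cntn1 in RGC was 59.2, 55.9, 55.1, 62.7 and 33.7 CPM in the same order of saline embryos and 21.3, 37.7, 43.8, 34.8, 29.7 and 22.8 CPM in EtOH embryos E1-1, E1-2, E2-1, E2-2, E2-3 and E2-4. The saline embryos other than S2-4 were above every EtOH embryo, and S2-4 lay inside the EtOH range. Without S2-4, 18% of all tests in the 4 types were called, and the share of all genes with this pattern is not given here. The log2 fold change was -0.83 (SE 0.21, 95% CI -1.29 to -0.37, edgeR adjusted p = 0.0477), where 3.79% of genes were called. With batch as a covariate it was -0.82 and the call was lost (adjusted p = 0.0609), as it was with no filter on low counts (-0.87, adjusted p = 0.0561). With the embryo number as a block it was also lost (-0.82, edgeR adjusted p = 0.104). The call was kept by DESeq2 (-0.84, adjusted p = 0.0042) and by limma voom with the dam as a block (-0.83, adjusted p = 0.0364). Counts summed per dam (-0.90, edgeR adjusted p = 0.0149) and thinned counts (-1.10, edgeR adjusted p = 0.0386) kept it too. Shares of all genes called in these fits are not given here. Without S2-4 the log2 fold change was -0.97 (adjusted p = 0.00135), and leaving out any other single embryo kept the direction and lost the call, with adjusted p of 0.0685 to 0.122. Within batches, saline and EtOH means were 57.5 and 29.5 CPM in batch 1 (log2 fold change -1.07, adjusted p = 0.0119) and 50.5 and 32.8 CPM in batch 2 (-0.68, adjusted p = 0.422). Each batch holds 1 dam per group. A Cntn1 UMI was seen in 21.5% ± 6.84 of saline and 7.78% ± 1.97 of EtOH nuclei, and after thinning in 7.49% ± 1.79 and 3.19% ± 0.702, where the lowest cluster, Cluster 17, had 2.66%. By cluster, the values were -0.85 in Cluster 2, -0.60 in Cluster 3, -1.11 in Cluster 12, -0.03 in Cluster 20 and -0.61 in Cluster 21, none called by edgeR as fitted here. Without the deepest nuclei Cntn1 in Cluster 12 was at -2.14 and called (adjusted p = 0.000532), counts summed per dam gave a call in Cluster 3 (adjusted p = 0.0356), and no filter on low counts gave one in Cluster 21 (adjusted p = 0.00185). RGC values are sums over these clusters, and the share of Cluster 21, high in Cntn1, differed between embryos. Its highest and lowest shares in saline were 206 of 1383 RGC nuclei in S2-2 and 45 of 1696 in S2-1. In EtOH they were 34 of 440 in E1-2 and 3 of 653 in E2-1. The part of this makeup in the RGC difference was not tested.

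Cntn5 in IPC was 333, 306, 413, 387 and 199.8 CPM in saline and 209.9, 182, 246, 192, 199.7 and 185 CPM in EtOH embryos. Again S2-4 alone among saline embryos lay inside the EtOH range, and the share of all genes with this pattern is not given here. The log2 fold change was -0.76 (SE 0.17, 95% CI -1.13 to -0.39, edgeR adjusted p = 0.0496), with 1.52% of genes called in IPC. With batch as a covariate it was also -0.76, and the call was lost (adjusted p = 0.065), as it was without the deepest nuclei (-0.82, adjusted p = 0.0526). Without S2-4 it was -0.91 (adjusted p = 1.11e-06), and without any other single embryo the call was lost, with adjusted p of 0.0771 to 0.131. Batch 1 alone gave -0.84 (adjusted p = 4.45e-05) and batch 2 alone -0.73 (adjusted p = 0.417), each with 1 dam per group. A Cntn5 UMI was seen in 71.6% ± 17.7 of saline and 34.6% ± 6.99 of EtOH nuclei, and after thinning in 36.8% ± 8.09 and 20.9% ± 5.07. On thinned counts the log2 fold change was -0.75 (adjusted p = 0.114).

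**Figure D3:**
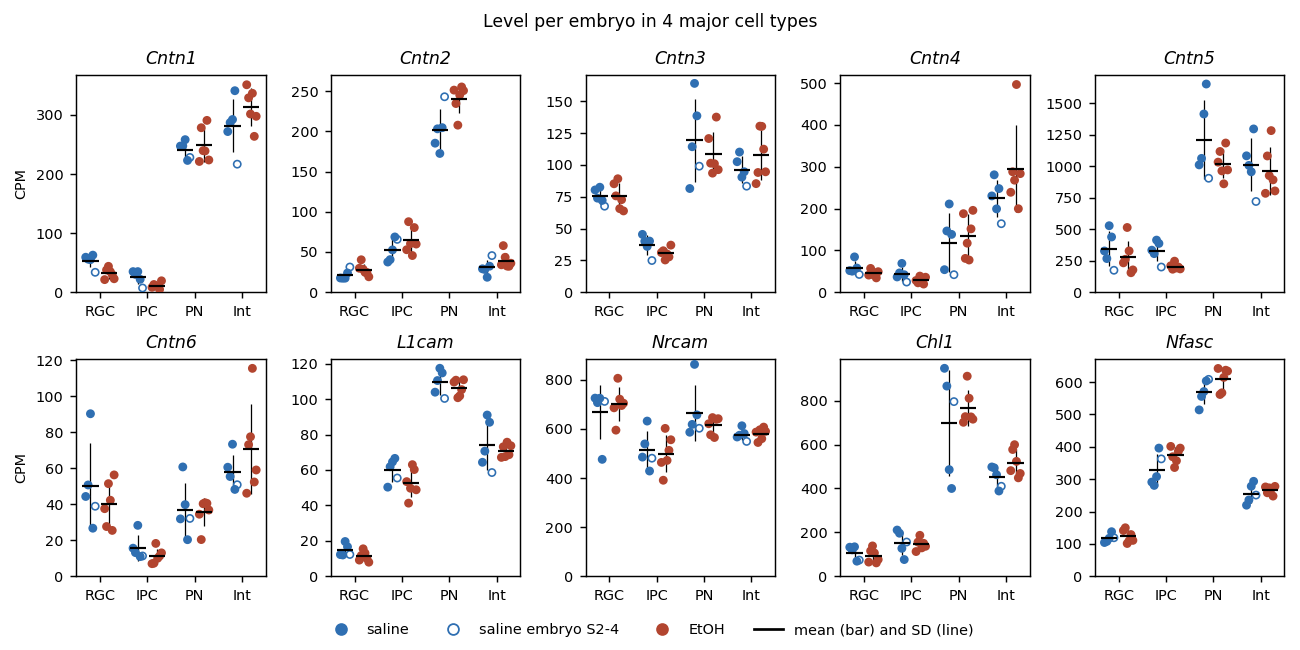
CPM of each gene per embryo (points) in RGC, IPC, PN and Int, saline in blue and EtOH in red, with the mean as a bar and the SD as a line; the open point is saline embryo S2-4. In RGC for Cntn1 and in IPC for Cntn5 the open point lies among the EtOH embryos while the other saline embryos lie above them.

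The change of Cntn1 differed between types when tested directly. The treatment by type test over the 4 types, fitted with edgeR over 15698 genes with the embryo as a block, gave an adjusted p of 0.0418 for Cntn1, and 0.631% of genes reached 0.05. Against the log2 fold change in RGC, that in PN was 0.81 higher, that in Int 0.95 higher and that in IPC lower, with a difference of -0.43. In PN, Cntn1 was 241 ± 14.7 CPM in saline and 249 ± 29 in EtOH embryos (log2 fold change 0.00, 95% CI -0.18 to 0.18), and in Int 282 ± 44.7 and 313 ± 31.8 (0.08, 95% CI -0.16 to 0.32). In IPC it was 25.8 ± 11.7 and 11 ± 4.92 CPM (-1.27, adjusted p = 0.118). Without S2-4 the test of the difference gave an adjusted p of 0.00378, and leaving out any other single embryo lost it, with adjusted p of 0.0537 to 0.248, as did RLE size factors (adjusted p = 0.0624). For the other 9 members it was 0.499 or more.

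Values of Cntn1 and Cntn5 were below 0 in the tested clusters where these genes were low and in some of the others. In clusters under 10% of the gene's highest level, Cntn1 was below 0 in 9 of 9 tested, with a median log2 fold change of -0.78, and Cntn5 in 12 of 12, with a median of -0.91. Cntn1 in Cluster 23, at 23.1 CPM from few nuclei, did not pass the filter on low counts and was not tested. In the other clusters Cntn1 was below 0 in 6 of 15, with a median of 0.08, and Cntn5 in 8 of 13, with a median of -0.08, and in Cluster 11 Cntn5 was 7483 ± 752 CPM in saline and 7170 ± 749 in EtOH (-0.12, 95% CI -0.31 to 0.08). In Cluster 21 Cntn5 was at 0.71 (edgeR adjusted p = 0.0755), and it was called higher there by DESeq2 (adjusted p = 0.0205) and limma voom with the dam as a block (adjusted p = 0.0498). The same tools called Cntn5 lower in Cluster 6 (adjusted p = 0.00213 and 0.0454) and Cluster 3 (adjusted p = 0.0186 and 0.0329), and counts summed per dam in Cluster 12 (adjusted p = 0.000119). DESeq2 called Cntn1 lower in Cluster 6 (adjusted p = 0.0116) and Cluster 9 (adjusted p = 0.0499). Shares of all genes called by these other fits are not given here. The split at 10% was set after the values were seen, and clusters share embryos, so they do not count as separate tests. Over all members, 57 of 75 values in such low clusters were below 0, or 76%, and over all genes tested it was 76.1% of 8542 values, against 50.9% and 47.9% in the other clusters. The members were not alike in this: Cntn2 was above 0 in 10 of its 12 low clusters, with a median of 0.36, Cntn4 was below 0 in 13 of 19, and Nrcam and Nfasc had no such low cluster.

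**Figure D4:**
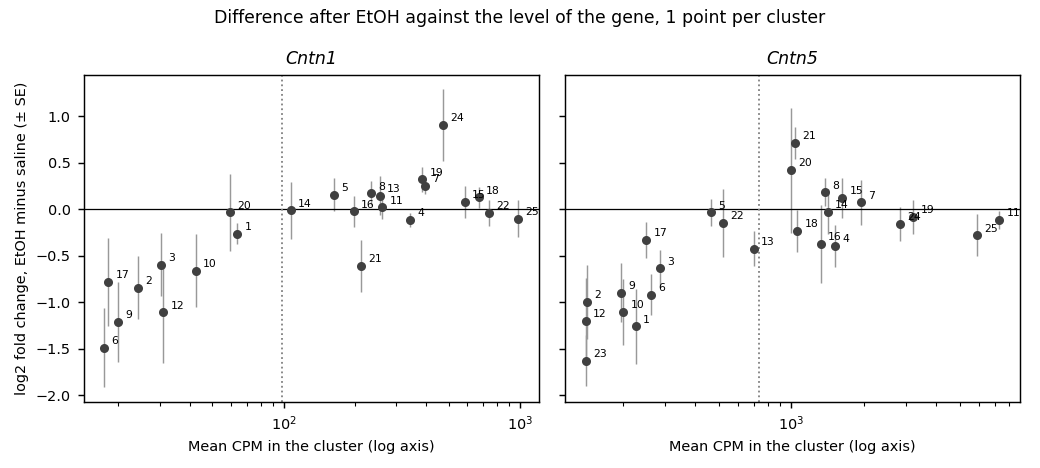
Log2 fold change, EtOH minus saline, with its SE (vertical axis) against the mean CPM in the cluster (log axis) for Cntn1 and Cntn5, with 1 point per cluster labelled by its number and a dotted line at 10% of the highest cluster. Left of the line 9 of 9 points of Cntn1 and 12 of 12 of Cntn5 lie below 0. The points share embryos and are not separate tests, and over all genes 76.1% of values in such low clusters were below 0.

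Values of the striatal marker Ebf1 were also below 0 in Clusters 1, 9 and 23 beside those of Cntn5, but not in Cluster 10, where Ebf1 was 153 CPM in saline and 225 in EtOH embryos (0.41, adjusted p = 0.774) and Cntn5 280.2 and 135 CPM (-1.10, adjusted p = 0.205). Ebf1, a transcription factor of striatal neurons, was 111 CPM in saline and 42 CPM in EtOH embryos in Cluster 1 (log2 fold change -1.41, edgeR adjusted p = 0.0493), and Rarb, a retinoic acid receptor, was 13.1 and 5.97 CPM (-1.20, adjusted p = 0.0256). Cntn5 in Cluster 1 was 329 ± 138 and 142 ± 68.6 CPM (-1.26, adjusted p = 0.103), and it was called lower there by DESeq2 (adjusted p = 0.0373), by limma voom with the dam as a block (adjusted p = 0.04) and by edgeR without S2-4 (-1.45, adjusted p = 0.0276). In Cluster 9, Ebf1 was called lower (-0.85, adjusted p = 0.0116) and Cntn5 was at -0.90 (adjusted p = 0.157), and at -1.06 without S2-4 (adjusted p = 0.0399). In Cluster 23, Ebf1 was 80.4 CPM in saline and 33 in EtOH embryos (-1.25, adjusted p = 0.361), and in IPC 222 and 204 CPM (-0.19, adjusted p = 0.71). In Cluster 11 itself, Ebf1 (12100 and 12765 CPM) and Rarb (1835 and 1972 CPM) had log2 fold changes of 0.03 and 0.05. Tests of Ebf1 in Clusters 2, 6 and 12, and of Rarb outside Clusters 1 and 11, are not given here. UMIs of Cntn5 per UMI of Ebf1 and Rarb together were 0.438 to 0.603 in Cluster 11 over all embryos and 1.21 to 4.27 in Cluster 1. In Cluster 23 they were 2 to 3.38 in saline and 0.5 to 4.6 in EtOH embryos, in IPC 1.03 to 2.1 and 0.729 to 1.23, and in Cluster 10 0.998 to 2.17 and 0.299 to 1.57, and at least 1 EtOH embryo lay in or under the range of Cluster 11 in Clusters 6, 9, 10, 12 and 23. Over whole libraries the summed level of both striatal markers was 825 to 1121 CPM in saline and 764 to 1331 in EtOH embryos. Red blood cell markers were 4.15 to 58.9 CPM in saline and 11.7 to 28.1 in EtOH, and microglial markers 7.57 to 16.5 and 13.7 to 18.8. Their part in the lower Cntn5 was not tested.

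**Figure D5:**
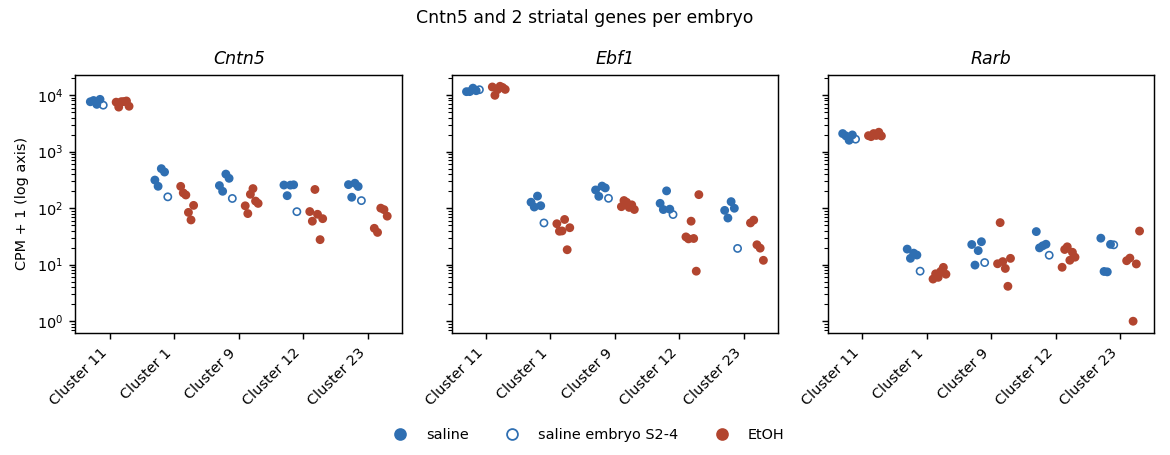
CPM + 1 (log axis) per embryo of Cntn5, Ebf1 and Rarb in Cluster 11 and in Clusters 1, 9, 12 and 23, saline in blue and EtOH in red, with saline embryo S2-4 as the open point. In Cluster 11 the groups overlap for all 3 genes, and in Cluster 1 Ebf1 is lower after EtOH.

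Cntn2 was the contactin with mostly higher values after EtOH. None was called by edgeR with treatment as the only term, all embryos and nuclei and the filter on low counts. Other fits did call it: in Cluster 9 it was called higher by edgeR with no filter (adjusted p = 0.00144), without the deepest nuclei (adjusted p = 0.0404) and with the embryo number as a block (adjusted p = 0.0406), in Cluster 13 by edgeR with no filter (adjusted p = 0.0359), and in Cluster 9 by DESeq2 (adjusted p = 0.0325) and by limma voom with the dam as a block (adjusted p = 0.0401), which also called it in Cluster 20 (adjusted p = 0.0356). These fits used the same embryos. Over the 10 members, no filter called 6.8% of cluster pairs, DESeq2 4.17% and limma voom 2.92%, against 0.417% before. Shares over all genes in these fits are not given here, so the calls are no result about Cntn2. Its value was above 0 in 21 of 23 clusters tested, with a median log2 fold change of 0.27 against 0.01 over all genes, and clusters share embryos, so they do not count as separate tests. In PN it was 185, 203, 172, 204 and 243 CPM in saline and 251, 234, 208, 245, 255 and 251 CPM in EtOH embryos, and the highest saline value was that of S2-4. The log2 fold change in PN was 0.21 (SE 0.07, 95% CI 0.06 to 0.37, edgeR adjusted p = 0.067). In Cluster 9 it was 185 ± 40 CPM in saline and 256 ± 32.1 in EtOH (0.45, adjusted p = 0.0578), and 0.56 without S2-4 (adjusted p = 0.00011). Its neighbour Nfasc in Cluster 9 did not overlap between groups, at 799 to 948 CPM in saline and 978 to 1122 in EtOH (0.24, adjusted p = 0.0665), as was so for 1.77% of genes there.

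For the other members no difference was called by edgeR on sums per embryo with treatment as the only term, all embryos and nuclei and the filter on low counts. Counts summed per dam called Cntn4 lower in Cluster 6 (-0.76, edgeR adjusted p = 0.0471). With no filter edgeR called Chl1 in Cluster 24 (-1.07, adjusted p = 0.00347), Cntn6 in Clusters 1 and 10, Nrcam in Clusters 11 and 16, Cntn4 in Clusters 9 and 16 and Cntn3 in Clusters 9, 20 and 23, all lower, and without the deepest nuclei Cntn6 in Cluster 13 higher (0.78, adjusted p = 0.0458). DESeq2 called Cntn6 (-1.29, adjusted p = 0.0408) and Nrcam (-0.66, adjusted p = 0.0214) lower in Cluster 1. For these other fits the share of all genes called is not given here. L1cam was below 0 in 21 of 24 clusters with a median log2 fold change of -0.08, and in RGC it was 14.6 ± 3.43 CPM in saline and 11.2 ± 2.78 in EtOH (-0.45, 95% CI -0.84 to -0.06, adjusted p = 0.12). In PN, where it was highest, the interval of the difference was -0.20 to 0.03. Nrcam in RGC was at -0.01 (95% CI -0.26 to 0.23). Cntn3 and Cntn4 in IPC were at -0.36 (adjusted p = 0.175) and -0.63 (adjusted p = 0.167), and Cntn6 in PN at -0.11 with an interval of -0.73 to 0.51.

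Chl1 in PN varied more among saline embryos than between the groups. It was 947, 866, 486, 400 and 796 CPM in saline embryos and 701, 727, 911, 811, 726 and 716 CPM in EtOH embryos, so that S2-1 and S2-2 lay below all others. The log2 fold change was 0.07 (95% CI -0.44 to 0.58, edgeR adjusted p = 0.862), and the batches went opposite ways, with -0.45 in batch 1 (adjusted p = 0.00287) and 0.50 in batch 2 (adjusted p = 0.386). Each batch holds 1 dam per group. In Cluster 22, where Chl1 is highest, S2-1 and S2-2 were at 655 and 545 CPM and the other 9 embryos at 1172 to 1567 CPM. The spread among saline embryos of dam S2 was thus larger than the difference between the treatments.

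With S2-4 left out, 20 of 238 member and cluster pairs were called, 2 higher and 18 lower, which is 8.4% against 8.78% of all tests, and 8 of 40 in the types, 20% against 18%. Cntn5 was then called lower in 6 clusters, Cntn3 and Nrcam in 3 each, Cntn1, Cntn4 and Cntn6 in 2 each, and Cntn2 higher in 2, while L1cam, Chl1 and Nfasc were called in 0 (edgeR). In the types all 8 were lower, beside Cntn1 in RGC and Cntn5 in IPC being L1cam in RGC (-0.52, adjusted p = 0.0454), Cntn4 in RGC (adjusted p = 0.0333), Cntn1, Cntn3 and Cntn4 in IPC (adjusted p = 0.00103, 0.00801 and 0.0154) and Cntn5 in PN (adjusted p = 0.0397). DESeq2 also called Cntn1 in IPC with all embryos (adjusted p = 0.0205).

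In the clusters, binding partners and relatives of the 2 families were called about as often as all genes, at 0.792% of tests. Of 38 genes that bind or act with contactins or L1 proteins, 37 were tested, and of 797 tests in clusters 1 was called higher and 5 lower, 0.753%, with a median log2 fold change of -0.04. Ptprg, a receptor phosphatase that binds several contactins, was lower in Cluster 23, at 236 ± 73 CPM in saline and 78.7 ± 17.6 in EtOH (-1.61, edgeR adjusted p = 0.00573), beside Cntn5. Tnr, the matrix protein tenascin-R that binds Cntn1, was lower in Cluster 11 (56.2 and 36.1 CPM, -0.63, adjusted p = 0.0238), as was Ephb2, a receptor kinase that acts on L1 proteins (188 and 152 CPM, -0.37, adjusted p = 0.045). Numb, an endocytic adaptor, was lower in Cluster 5 (-0.38, adjusted p = 0.0281), and Cntnap5a, of the family that joins contactins in the membrane, in Cluster 9 (-1.15, adjusted p = 0.0376). The 1 higher call, outside the naming rule and named after its value was seen, was Aplp1, of the amyloid precursor family, in Cluster 4 (42.3 and 56 CPM, 0.38, adjusted p = 0.0495).

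Of 22 other adhesion genes of the immunoglobulin family, 22 were tested, and 4 of 516 tests in clusters were called, all lower, 0.775%, with a median of -0.07. Nectin3, which joins cells through other nectins, was called in 2 clusters, at 83.8 ± 11.3 CPM in saline and 54.1 ± 5.2 in EtOH in Cluster 10 (-0.68, edgeR adjusted p = 0.0302) and 54.1 ± 6.13 and 42.8 ± 4.57 in Cluster 1 (-0.38, adjusted p = 0.0484). Sdk1, a sidekick of synaptic layers, was lower in Cluster 12 (127 and 75.4 CPM, -0.78, adjusted p = 0.0297), and Alcam, which also binds L1cam, in Cluster 18 (394 and 253 CPM, -0.66, adjusted p = 0.0396). In the 4 types, 7 of 87 tests were called, 8.05%, of which 6 lower, and 3 of these were of Nectin3. For the binding partners it was 2 of 148, 1.35%, of which 1 lower. Over all genes 4.32% of type tests were called and 1.47% called lower.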

How the data were processed

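Reads were mapped by the authors to mm10 using default Cell Ranger, nuclei were filtered and clustered in Seurat with Harmony, and the authors deposited 275 tables of raw UMI counts, 1 per embryo and cluster, with 23513 genes. The Cell Ranger version is not given in the sources used here. Here counts were summed per embryo and cluster or type, leaving out 9 sums with fewer than 10 nuclei. Fits used edgeR 4.0.16 in R 4.3.3 (robust glmQLFit after TMM and filterByExpr). DESeq2 1.42.0 and limma 3.58.1 served as alternatives, and the fits were checked on simulated counts. Levels used Python 3.11.15 and pandas 2.3.3. SDs and intervals cover the spread between embryos. The members, gene lists and rules were chosen with earlier results of these data known. The genes named from the lists are up to 5 per list called in most clusters, ties by smallest adjusted p, and the 3 genes nearest each member by r were computed, of which some are not reported here. Replicate numbers did not pair the embryos.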

Additional observations from a re-analysis of the deposited data

Results flagged for a closer look

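In 6 of 82 groups of 5 or 6 embryos, 1 embryo lay far from the others of its group, where chance gives about 1 in 20. Saline embryo S2-4 had 33.7 CPM of Cntn1 in RGC against 55.1 to 62.7 in the other saline embryos, and this embryo moves the treatment result as given above. EtOH embryo E2-2 had 496 CPM of Cntn4 in Int against 199.5 to 288. Cluster 7, where Cntn4 is high, was 13% of the nuclei of E2-2 against 2.34% to 7.1% in the other EtOH embryos. Ntng1 and Tcf7l2, highest in Clusters 24 and 20, summed to 446 CPM in E2-2 against 156 to 319 in them. Saline embryo S2-1 had more of both, at 15.7% and 478 CPM, and its Cntn4 in Int was not among the 6 far values. The part of Cluster 7 and of these genes in the Cntn4 value of E2-2 was not tested. Saline embryo S2-1 had 28.3 CPM of Cntn6 in IPC against 10.9 to 15.6, and 863 CPM of Nrcam in PN against 587 to 657. EtOH embryo E1-2 had 20.4 CPM of Cntn6 in PN against 34.5 to 40.8. Saline embryo S2-2 had 476 CPM of Nrcam in RGC against 707 to 725. Of the 5 saline and 6 EtOH embryos, the 3 of dam S2 gave 4 of these 6 values.

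The effect of EtOH on Cntn1 differed between the 4 major types by the test of the difference itself (edgeR, adjusted p = 0.0418), and this held in 1 of 11 fits that left out an embryo, the one without S2-4.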

How the results depend on the processing

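Against 1 of 240 member and cluster pairs called, DESeq2 gave 10 of 240, no filter on low counts 17 of 250 and counts summed per dam 8 of 248. Limma voom with dams as a random effect gave 7 of 240, and nuclei without the deepest 5% gave 5 of 235. Shares over all genes are given here only for edgeR as fitted here and for the fit without S2-4. The counts of the other settings, in clusters and types, are therefore no result about the members. Batch 1 alone, with 1 dam per group, gave 32 of 217. Batch 2 alone, also with 1 dam per group, gave 0 (edgeR, 45 of 238 at an unadjusted p under 0.05), as did thinning to 2000 UMIs (33 of 194). In the 4 types, against 2 called, no filter, thinning and leaving out the deepest nuclei gave 1 each, batch as a covariate and batch 2 alone 0 (edgeR, 9 and 3 of 40 at an unadjusted p under 0.05), and batch 1 alone 14. Leaving out 1 embryo gave 0 (without E1-2 or E2-1; edgeR, 41 and 39 of 239 at an unadjusted p under 0.05) to 20 (without S2-4) calls in clusters, 0 to 8 in types, and 0 to 1 member with a difference between types, and RLE size factors gave 0 for the last. The replicate block, with the embryo number as a term, gave 4 calls in clusters and 0 in types (edgeR, 7 of 40 at an unadjusted p under 0.05), and same-numbered embryos had correlations of -0.18 to 0.17 in their deviations from the group means. The direction turned in batch 1 alone, with a call, for Nfasc in RGC (0.35), Chl1 in PN (-0.45) and Cntn3 in Int (-0.38). The causes were not tested. The 3 called log2 fold changes stayed negative in every alternative run. All 3 were also called by DESeq2, by limma voom with the dam as a block and on counts summed per dam, and each lost its call in other fits. Among 874 values of the 38 uncalled differences by type, 16 were called with the sign kept and 3, named above, with the sign turned. The other sign was found in 53. Of the mean levels in each gene's highest cluster, Cntn1 in Cluster 25 moved to 1103 CPM after thinning, and the other 9 moved by less than their SD. Over saline embryos alone 9 of 10 genes kept their highest cluster, with Chl1 the exception. Clusters 20 to 25 hold few nuclei in most embryos, which limits what could be detected there.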
